A study of Mus musculus with 12 samples.

Results

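The genes described here are 10 mouse genes of the simple epithelial cytoskeleton and of epithelial cell contacts, taken by name from the table of 55335 genes. They are the type II keratins Krt7 and Krt8, the type I keratins Krt18 and Krt19, the claudins Cldn6 and Cldn7, Ocln (occludin), Tjp1 (the scaffold protein zonula occludens 1), Epcam (epithelial cell adhesion molecule) and Nectin4. All 10 were among the 16468 genes with enough counts to be tested. The series holds 12 RNA-seq libraries of polyA RNA from a mouse embryonic stem cell line, with 3 libraries at each of days 0, 2, 4 and 6. The labels give all 4 days the same growth conditions, a serum-replacement medium with LIF and β-mercaptoethanol on gelatin with irradiated mouse embryonic fibroblasts as feeders. They name no genetic change or added agent and do not say what the cells underwent from day 0 on, so the comparisons below are between days. Feeder cells were part of the culture, and the labels do not say whether they were removed before RNA extraction.

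Keratins are intermediate filament proteins that assemble as obligate pairs of a type I and a type II chain, and the pair of KRT8 and KRT18 is the typical filament of simple, single-layered epithelia. KRT7 and KRT19 join it in many ductal, glandular and extraembryonic epithelia. Claudins and occludin are the membrane proteins of tight junctions, and ZO-1, the product of Tjp1, ties them to actin. EPCAM is a homophilic adhesion protein that binds claudin-7, and NECTIN4 belongs to the immunoglobulin-like adhesion proteins that start adherens junctions. Embryonic stem cells are themselves epithelial in several of these features, and tight junctions and keratin filaments of the mouse embryo form first in its outer epithelia.

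Total counts per library ran from 6945900 to 13266962, and mitochondrial genes took 1.38% to 2.54% of them. Levels are in CPM, counts of tested genes brought to a common library total with trimmed-mean (TMM) scaling, and means are given with the SD over 3 libraries. The labels do not say that the 3 libraries of a day came from separate cultures, so the spread behind every p-value may be only technical. The stem cell label was checked against 8 pluripotency markers. Their summed level was 5196 to 5270 CPM at day 0 and 760.3 to 790.6 CPM at day 6, and 8 of 8 were lower than at day 0 at each later day. All 13 markers of extraembryonic endoderm rose at days 2, 4 and 6 against day 0, and their summed level went from 236 to 244 CPM at day 0 to 1688 to 1711 CPM at day 4 and 1653 to 1680 CPM at day 6. Among all tested genes, 25.4% rose and 24.8% fell at all of days 2, 4 and 6 against day 0.

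The 4 simple keratins all ended well above their starting level, but they did not leave it together. Krt8 and Krt18 rose from day 2, Krt19 fell at day 2 and rose afterwards, and Krt7 rose from day 4. In the sum of the 4 genes the level was 65.9 ± 1.57 CPM at day 0, 141 ± 1.54 at day 2, 380.0 ± 8.20 at day 4 and 628 ± 5.66 at day 6 (SD, n = 3). In libraries made from whole cultures, more cells expressing a gene cannot be told apart from more RNA of it per cell. The summed extraembryonic endoderm markers were higher at days 2 and 4 and did not go higher from day 4 to day 6. Taken singly, 8 of these 13 markers rose from day 4 to day 6, 4 fell and 1 did not pass. Among all tested genes 23.6% rose and 19.3% fell in that step. The part of these markers in the keratin results was not tested.

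Krt8, the type II chain of the simple epithelial pair, lies on the minus strand at chr15:101996698-102004482 (GRCm38). Its levels were 23.7, 24.4 and 23.9 CPM at day 0 and 64.7, 69.8 and 75.8 CPM at day 2. They were 149, 141 and 142 CPM at day 4 and 179, 188 and 189 CPM at day 6. The libraries of the 4 days did not overlap, and every day lay above the day before it. The log2 fold change against day 0 was 1.54 (SE 0.07) at day 2, 2.58 (SE 0.06) at day 4 and 2.95 (SE 0.06) at day 6, the last with an adjusted p of 4.94e-33 by edgeR's quasi-likelihood test. The step from day 4 to day 6 was the smallest of the 3 steps, 0.36 (SE 0.05, adjusted p = 6.33e-08).

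Krt18, its type I partner, lies on the plus strand at chr15:102028180-102032027, the only type I keratin gene of this otherwise type II cluster. It was measured at 20.6, 22.3 and 23.7 CPM at day 0 and at 60.1, 56.0 and 53.0 CPM at day 2. It reached 151, 159 and 143 CPM at day 4 and 291, 295 and 280.1 CPM at day 6. Again no library of a day overlapped one of another day. The log2 fold change was 1.35 (SE 0.07) at day 2, 2.77 (SE 0.07) at day 4 and 3.70 (SE 0.06) at day 6 (adjusted p = 2.28e-36), a 13.04-fold rise and the largest of the 10 genes. From day 4 to day 6 Krt18 still rose by 0.93 (SE 0.05, adjusted p = 4.06e-19).

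The ratio of Krt8 to Krt18 counts within a library therefore moved. Its geometric mean was 1.08 at day 0, 1.24 at day 2, 0.954 at day 4 and 0.642 at day 6. All 3 day 6 libraries lay below all libraries of the other days, while days 0 and 2 overlapped. An exact permutation F test over the 4 days gave p = 0.000779, or 0.0013 adjusted over the 5 ratios tested. A processed pseudogene, Krt8-ps, which was looked up after the data were seen, took 1133 counts in the 12 libraries against 13081 for Krt8, and reads of such copies can be split between them. With Krt8 and Krt8-ps summed, the log2 fold changes were 1.53, 2.55 and 2.92 at days 2, 4 and 6.

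The starts of Krt8 and Krt18 in GENCODE M21 are 23.7 kb apart and point away from each other. The long non-coding gene Gm36026, on the strand opposite to Krt8 and overlapping it, had 23 counts in all libraries together. The type II keratins on the far side of Krt8 were hardly counted, with 177 counts for Krt78, 60 for Krt79, 53 for Krt4, 45 for Krt1, 8 for Krt2, 3 for Krt77 and 1 for Krt76. The 250 bases before the RefSeq start (GRCm38.p6) of the neighbours that moved together are shown to compare them, Krt8 at chr15:102004343-102004592 (minus strand) and Krt18 at chr15:102027966-102028215 (plus strand). Each is printed 5′ to 3′ and ends at the base before the start. Capitals mark the E-box CACCTG or CAGGTG, the sequence to which SNAIL and ZEB repressors bind, and the nuclear receptor element AGGTCA or its reverse TGACCT.
Krt8: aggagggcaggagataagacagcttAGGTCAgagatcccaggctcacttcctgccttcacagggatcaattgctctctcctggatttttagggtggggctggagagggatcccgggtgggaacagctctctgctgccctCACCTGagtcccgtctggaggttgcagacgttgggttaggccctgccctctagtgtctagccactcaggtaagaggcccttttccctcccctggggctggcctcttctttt
Krt18: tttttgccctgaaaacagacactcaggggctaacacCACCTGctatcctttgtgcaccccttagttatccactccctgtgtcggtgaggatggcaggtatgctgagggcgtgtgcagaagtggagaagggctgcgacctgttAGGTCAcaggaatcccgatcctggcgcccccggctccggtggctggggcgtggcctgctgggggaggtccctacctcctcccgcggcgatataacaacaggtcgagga
The RefSeq starts of Krt8 and Krt18 lie inside the genes as GENCODE M21 places them, so both windows reach into those genes. Krt8 has the E-box 111 to 106 bases before its RefSeq start, inside the GENCODE gene, and AGGTCA 225 to 220 bases before it. Krt18 has the same pair of motifs in the reverse order, with the E-box 214 to 209 and AGGTCA 108 to 103 bases before the start. On either strand, the E-box is in 17.2% and AGGTCA in 14.0% of 32851 such windows of all genes, and a match is only a description of the letters.

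Krt19, the type I keratin that lacks a tail domain, lies on the minus strand at chr11:100140810-100148665. Its levels were 17.6, 19.2 and 15.9 CPM at day 0, then 13.1, 11.5 and 12.3 CPM at day 2. They were 78.0, 73.4 and 74.96 CPM at day 4 and 146, 129 and 136 CPM at day 6. All libraries of day 2 lay below all of day 0, and those of days 4 and 6 lay above both. Krt19 fell by 0.51 on the log2 scale at day 2 (SE 0.10, adjusted p = 1.71e-05) and then rose by 2.62 from day 2 to day 4 (SE 0.07, adjusted p = 1.33e-27). At day 6 it was 2.97 above day 0 (SE 0.07, adjusted p = 2.26e-31).

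Krt7, a type II keratin of ductal and glandular epithelia and of trophoblast, lies on the plus strand at chr15:101411043-101430313. It was the least abundant keratin of the 4, at 2.26, 1.31 and 2.91 CPM at day 0 and 2.42, 3.54 and 2.09 CPM at day 2. It stood at 8.71, 9.13 and 10.9 CPM at day 4 and 16.0, 16.7 and 16.3 CPM at day 6. Days 0 and 2 overlapped, and each later day lay above all earlier libraries. The day 2 difference did not pass the test (log2 fold change 0.31, SE 0.25, adjusted p = 0.281). Krt7 rose by 1.80 from day 2 to day 4 (SE 0.17, adjusted p = 2.94e-11) and stood 2.90 above day 0 at day 6 (SE 0.18, adjusted p = 1.34e-17).

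The ratio of Krt7 to Krt19 had geometric means of 0.120, 0.216, 0.127 and 0.120 at days 0, 2, 4 and 6, and its exact permutation test did not pass (p = 0.0921, adjusted p = 0.0921). Its day 0 values rest on 10 to 23 counts of Krt7 per library. Leaving out the replicate 2 library of day 0 brought the adjusted p to 0.0335, and leaving out replicate 3 of day 0 to 0.0158, with differences between days 6 and 0 of opposite sign (-0.38 and 0.31, log2).

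Per kilobase of the longest protein-coding transcript in the GENCODE M21 basic set, the type II pair Krt7 and Krt8 summed to 12.8 ± 0.128, 36.5 ± 2.80, 75.9 ± 2.22 and 98.7 ± 2.71 CPM per kb at days 0, 2, 4 and 6 (SD, n = 3). The type I pair Krt18 and Krt19 summed to 26.6 ± 1.10, 47.0 ± 2.80, 153 ± 5.16 and 288 ± 7.003 CPM per kb. The ratio of this type I pair to this type II pair was 2.08 ± 0.0785 at day 0, 1.30 ± 0.178 at day 2, 2.02 ± 0.0898 at day 4 and 2.92 ± 0.151 at day 6. It was lowest in the day 2 libraries, when Krt19 was low and Krt8 had already risen, and highest in those of day 6. Other keratins are left out of it. At day 0 these included the type I genes Krt42 (5.41 ± 1.28 CPM per kb), Krt10 (4.80 ± 0.839) and Krt17 (2.68 ± 0.581). The highest other type II genes at day 0 were Krt79 (0.978 ± 0.105) and Krt78 (0.737 ± 0.0766). A ratio over all listed keratins was not computed.

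**Figure D1:**
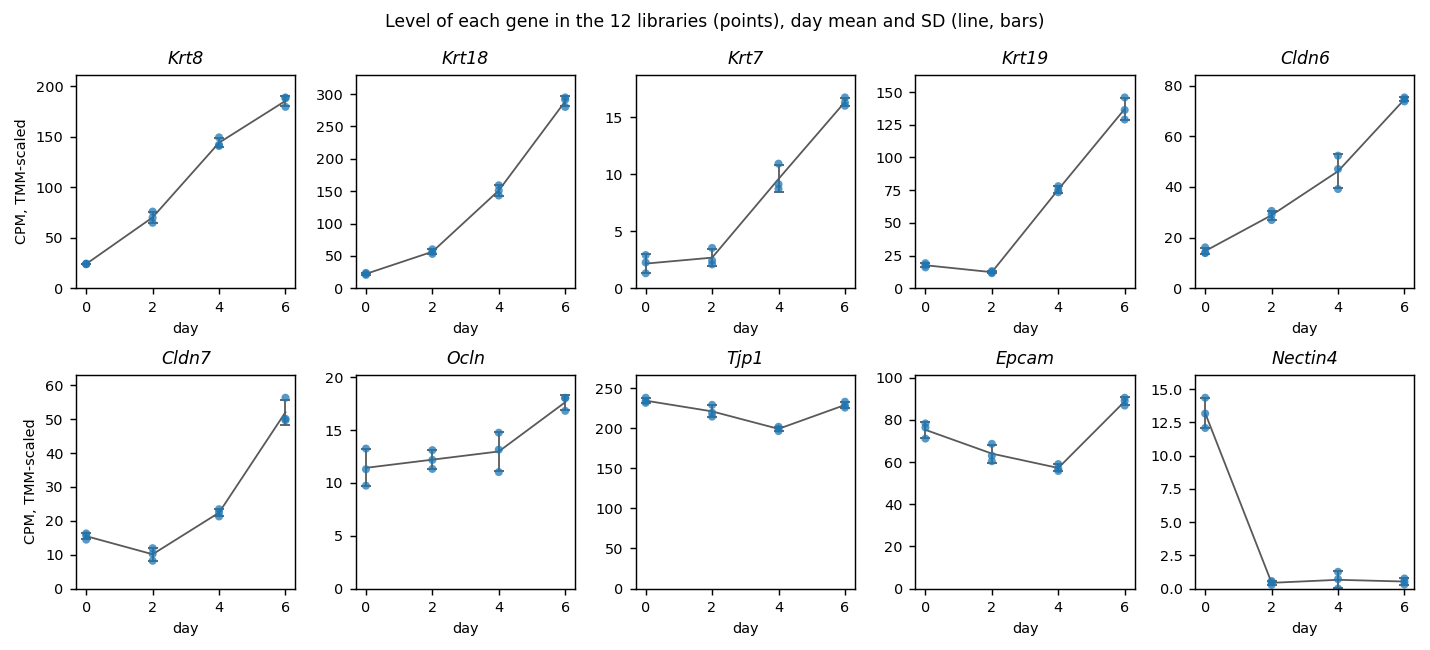
Level of each of the 10 genes in CPM (vertical axis, from 0, a separate scale per gene) at days 0, 2, 4 and 6 (horizontal axis). Points are the 12 libraries, and the line with bars is the mean and SD of 3 libraries; the keratins end at 16.3 CPM (Krt7) to 289 CPM (Krt18), and Nectin4 drops from 13.2 CPM to below 1 CPM by day 2.

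Cldn6, a claudin of early embryonic epithelia, lies on the plus strand at chr17:23679249-23682446. Its levels were 14.0, 16.1 and 13.9 CPM at day 0 and 30.5, 26.9 and 29.1 CPM at day 2. They were 52.4, 47.1 and 39.2 CPM at day 4 and 73.8, 74.6 and 75.4 CPM at day 6. No libraries of different days overlapped, though those of day 4 were spread widely. The log2 fold change against day 0 was 0.98 (SE 0.10) at day 2, 1.67 (SE 0.09) at day 4 and 2.35 (SE 0.09, adjusted p = 1.86e-24) at day 6. Cldn6, Krt8 and Krt18 were the 3 of the 10 genes that rose at each of the steps from day 0 to 2, 2 to 4 and 4 to 6, as did 4.54% of all tested genes.

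Cldn7, a claudin of many simple epithelia and the partner of EPCAM, lies on the plus strand at chr11:69964779-69967885. It started at 16.3, 14.4 and 15.7 CPM and stood at 10.2, 8.20 and 11.9 CPM at day 2. It then reached 23.4, 22.5 and 21.3 CPM at day 4 and 50.1, 49.7 and 56.3 CPM at day 6. All day 2 libraries were below those of day 0, and those of days 4 and 6 were above them. Like Krt19, Cldn7 fell at day 2 (log2 fold change -0.62, SE 0.12, adjusted p = 1.11e-05) and rose over the next steps, by 1.16 (SE 0.10) and 1.21 (SE 0.08, adjusted p = 2.81e-15). At day 6 it was 1.74 above day 0 (SE 0.09, adjusted p = 4.72e-20).

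The claudins thus parted at day 2. The geometric mean ratio of Cldn6 to Cldn7 counts was 0.949 at day 0, 2.87 at day 2, 2.05 at day 4 and 1.43 at day 6, and no libraries of different days overlapped. The exact permutation test gave p = 6.49e-05, the smallest that 369600 assignments of the libraries can give (adjusted p = 0.000162). Among 22 listed claudin genes, per kilobase of transcript, Cldn4 ranked 1 at days 0 and 2, and Cldn6 ranked 1 and Cldn7 ranked 2 at days 4 and 6. Cldn6 and Cldn7 together made up 38.9% ± 1.05 of the summed level of these 22 genes per kilobase at day 0, 42.1% ± 1.52 at day 2, 60.6% ± 3.32 at day 4 and 71.0% ± 1.07 at day 6 (SD, n = 3). Claudin genes outside the list were not looked up.

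Cldn6 and Epcam lie on chromosome 17, and their windows of 250 bases before the RefSeq start are shown because the genes share the E-box but not the time course. Cldn6 is at chr17:23679115-23679364 and Epcam at chr17:87635729-87635978, both on the plus strand. Nectin4, at chr1:171369923-171370172 (plus strand), is shown beside them as the gene that fell. Capitals mark the same motifs as above.
Cldn6: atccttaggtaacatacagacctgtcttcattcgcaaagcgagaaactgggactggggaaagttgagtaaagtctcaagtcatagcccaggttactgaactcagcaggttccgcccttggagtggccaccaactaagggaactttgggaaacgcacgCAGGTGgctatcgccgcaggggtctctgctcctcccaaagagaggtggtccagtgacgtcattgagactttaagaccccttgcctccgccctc
Epcam: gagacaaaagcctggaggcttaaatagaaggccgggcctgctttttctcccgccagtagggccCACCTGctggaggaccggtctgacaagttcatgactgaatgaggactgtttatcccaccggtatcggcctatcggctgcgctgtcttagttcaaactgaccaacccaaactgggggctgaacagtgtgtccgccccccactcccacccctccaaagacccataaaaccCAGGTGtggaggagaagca
Nectin4: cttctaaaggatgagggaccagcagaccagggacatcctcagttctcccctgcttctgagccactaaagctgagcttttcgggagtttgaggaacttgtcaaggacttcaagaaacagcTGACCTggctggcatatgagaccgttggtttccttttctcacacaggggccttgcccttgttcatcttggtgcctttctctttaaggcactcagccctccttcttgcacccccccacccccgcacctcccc
The windows of Cldn6 and Nectin4 also reach into the genes as GENCODE M21 places them. Cldn6 has the E-box 93 to 88 bases before its RefSeq start, inside the GENCODE gene. Epcam has the E-box at 187 to 182 and again at 19 to 14 bases before its start. Nectin4 has no E-box in its window and has TGACCT 131 to 126 bases before its RefSeq start. Windows were found for 9 of the 10 genes, Krt19 being the exception, and Cldn7 and Ocln have a pair of starts each, which gives 11 windows. The E-box was in 7 of the 11 windows, at least 1 each of Krt7, Krt8, Krt18, Cldn6, Cldn7, Ocln and Epcam. The GC box GGGCGG or CCGCCC, which SP and KLF factors bind, was in 7 of 11 windows and in 32.7% of all. The GRHL motif AACCNGTT was in none of the 11 windows and in 1.79% of all.

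Of the adhesion genes, Epcam moved little and in both directions. It lies on the plus strand at chr17:87635979-87651129. Its levels were 76.4, 71.2 and 78.3 CPM at day 0 and 68.7, 63.0 and 60.4 CPM at day 2. They were 59.0, 56.8 and 55.8 CPM at day 4 and 90.5, 89.0 and 86.8 CPM at day 6. The libraries of the 4 days did not overlap, with day 4 lowest and day 6 highest. Epcam fell by 0.23 (log2) at day 2 (SE 0.06, adjusted p = 0.000394), and by 0.39 at day 4 (SE 0.06, adjusted p = 1.82e-07), each against day 0. It then rose by 0.63 from day 4 to day 6 (SE 0.06, adjusted p = 5.27e-12) to 0.24 above day 0 (SE 0.05, adjusted p = 0.000186). The day 2 call was lost when libraries were scaled by library size alone (log2 fold change -0.10, adjusted p = 0.114). The fall from day 2 to day 4 (-0.16, SE 0.06, adjusted p = 0.0173) was lost under DESeq2 (adjusted p = 0.0782), and without replicate 1 of day 2 (adjusted p = 0.157) or replicate 2 or 3 of day 4 (adjusted p = 0.0552 and 0.0557).

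The ratio of Epcam to Cldn7 counts, which sets the adhesion protein against its claudin partner, had geometric means of 4.85, 6.37, 2.55 and 1.71 at days 0, 2, 4 and 6. The libraries of no days overlapped, and the exact permutation test gave p = 6.49e-05 (adjusted p = 0.000162), the smallest it can give.

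Nectin4 was the only one of the 10 genes that was lower at day 6 than at day 0 by the test. It lies on the plus strand at chr1:171370099-171388598. At day 0 it was measured at 14.4, 12.1 and 13.2 CPM, from 127, 92 and 104 counts. At day 2 the counts were 6, 7 and 3, at day 4 they were 13, 0 and 5, and at day 6 they were 4, 7 and 5. In CPM these were 0.455, 0.563 and 0.273 at day 2, 1.26, 0 and 0.710 at day 4, and 0.299, 0.756 and 0.526 at day 6. The 0 of day 4 allows up to 0.288 CPM, the level of 3 counts. All libraries of day 0 lay far above all later ones, and the later days overlapped. From the summed counts, Nectin4 was 30.3-fold lower at day 2 (95% interval 18.4 to 53.7), 20.5-fold lower at day 4 (12.7 to 35.0) and 26.6-fold lower at day 6 (16.1 to 47.1), intervals that cover counting error only. The fitted log2 fold change was -4.88 (SE 0.31, adjusted p = 1.5e-13) at day 2 and -4.70 (SE 0.31, adjusted p = 2.65e-13) at day 6. At day 4 it was -4.33 (SE 0.31, adjusted p = 1.49e-12), and it depended on the spread of the day 4 libraries, at -5.46 without replicate 1 and -3.66 without replicate 2 of that day. Neither later step passed the test. The step from day 2 to day 4 was 0.56 (SE 0.61, adjusted p = 0.474), and without replicate 2 of day 4, the library with no Nectin4 count, it was 1.22 (adjusted p = 0.0383).

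Ocln, the gene of the membrane protein occludin, lies on the minus strand at chr13:100496507-100552718. It stood at 11.3, 13.26 and 9.75 CPM at day 0, 13.1, 11.3 and 12.2 CPM at day 2, 11.03, 13.2 and 14.8 CPM at day 4, and 16.8, 18.0 and 18.1 CPM at day 6. The libraries of days 0, 2 and 4 overlapped, and those of day 6 lay above all of them. The log2 differences from day 0 were 0.10 (SE 0.12, adjusted p = 0.477) at day 2 and 0.17 (SE 0.13, adjusted p = 0.23) at day 4. Scaling by library size alone brought the day 4 difference past the threshold (0.30, adjusted p = 0.0336). Ocln rose by 0.62 at day 6 (SE 0.12, adjusted p = 7.95e-06).

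Tjp1, the scaffold of the junction plaque, lies on the minus strand at chr7:65296165-65527781 and was the most counted gene of the 10 at day 0. Its levels were 233, 238 and 232 CPM at day 0, 219, 229 and 214 CPM at day 2, 196, 199 and 202 CPM at day 4, and 226, 233 and 228 CPM at day 6. Day 4 lay below the other days, while days 0 and 6 overlapped. Tjp1 fell by 0.24 (log2) at day 4 (SE 0.04, adjusted p = 7.91e-06), or by 0.11 under scaling by library size alone (adjusted p = 0.0199), and rose by 0.20 from day 4 to day 6 (SE 0.04, adjusted p = 0.00019). Its differences from day 0 were -0.08 (SE 0.04, adjusted p = 0.0757) at day 2 and -0.03 (SE 0.04, adjusted p = 0.472) at day 6. Under scaling by library size alone these turned to 0.05 and 0.07, and without replicate 2 of day 2 the day 2 difference passed the test (-0.11, adjusted p = 0.0333). The ratio of Ocln to Tjp1 counts had geometric means of 0.0487, 0.0554, 0.0650 and 0.0772 over the 4 days. The exact permutation test gave p = 0.00468 (adjusted p = 0.00584), and only the day 6 libraries stood clear of all others.

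**Figure D2:**
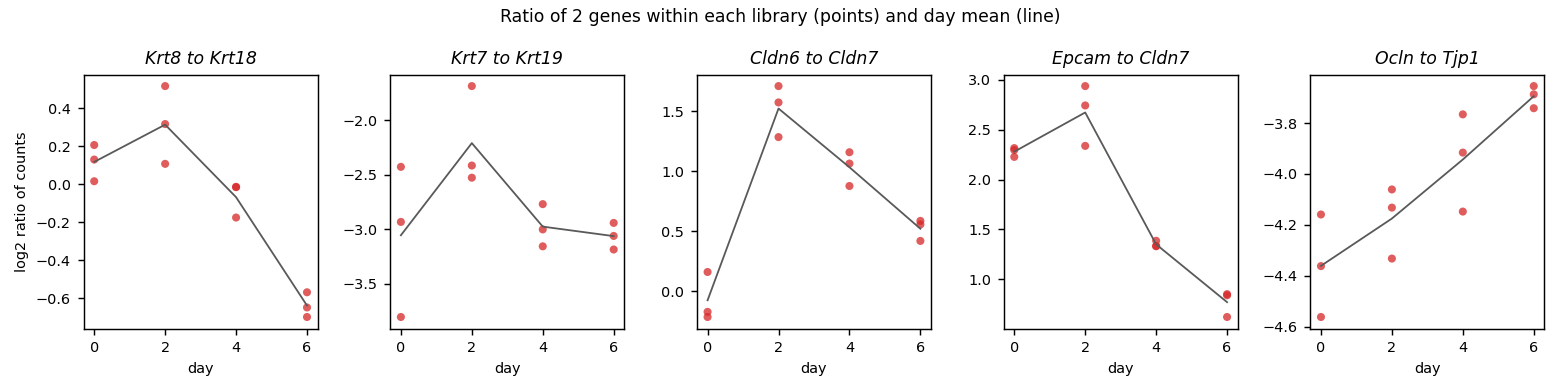
Log2 ratio of the counts of 2 genes within each library (vertical axis, a separate scale per ratio) at days 0, 2, 4 and 6 (horizontal axis), with points for the 12 libraries and a line through the day means. Cldn6 to Cldn7 is highest at day 2 (geometric mean 2.87), Krt8 to Krt18 is lowest at day 6 (0.642), and Krt7 to Krt19 is widely spread at day 0.

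Counted together, 3 of the 10 genes rose, 4 fell and 3 did not pass at day 2 against day 0, where 68.1% of all tested genes were called, 34.9% as higher and 33.2% as lower. At day 4 against day 0, 6 rose, 3 fell and 1 did not pass, beside 73.6% called among all genes (37.5% higher, 36.1% lower). At day 6 against day 0, 8 rose, 1 fell and 1 did not pass, beside 76.9% called (39.4% higher, 37.5% lower). The median log2 fold change of the 10 genes was 0.01 at day 2, 1.10 at day 4 and 2.04 at day 6, against 0.02, 0.01 and 0.02 over all tested genes. The libraries of the days compared did not overlap in 8 of the 10 genes at day 2, in 9 at day 4 and in 9 at day 6, which was so in 70.7%, 75.2% and 78.3% of all tested genes. These 3 comparisons share the day 0 libraries. From day 2 to day 4, 6 rose and 2 fell, with 50.1% of all genes called (25.3% higher, 24.8% lower). From day 4 to day 6, 9 rose and none fell, with 42.9% called (23.6% higher, 19.3% lower). The libraries did not overlap in 8 of the 10 genes for the former step (55.7% of all genes) and in 9 for the latter (50.7%). All 10 varied over the 4 days by the F test, as did 89.2% of all tested genes. With so many genes called, the share of members called says little, and the sizes and the timing above carry the description.

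**Figure D3:**
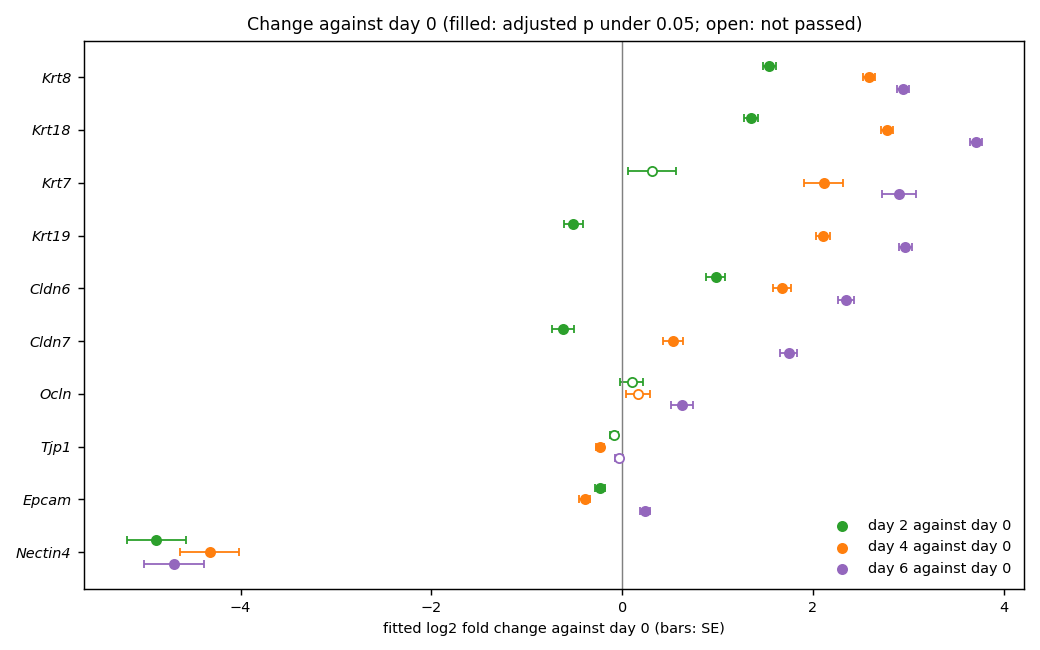
Fitted log2 fold change against day 0 (horizontal axis, with SE bars) for the 10 genes (vertical axis) at days 2, 4 and 6. Filled points have an adjusted p under 0.05 and open points do not; at day 6 Krt18 is farthest right at 3.70 and Nectin4 far left at -4.70, while Tjp1 is at -0.03.

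The order of the levels per kilobase changed over the course. At day 0 Epcam (36.9 ± 1.82 CPM per kb) and Tjp1 (33.2 ± 0.467) led, followed by Krt18 (15.4 ± 1.08) and Krt8 (12.3 ± 0.181). Krt8 overlapped Cldn7 (11.6 ± 0.702), which overlapped Krt19 (11.2 ± 1.02), and Krt7 was last at 0.528 ± 0.196. At day 2 Krt18, Krt8, Epcam and Tjp1 led, each overlapping the next, at 39.2 ± 2.47 to 31.3 ± 1.06 CPM per kb. At day 6 Krt18 (201 ± 5.34 CPM per kb) stood above Krt8 (94.7 ± 2.64) and Krt19 (87.0 ± 5.39), which overlapped, then came Cldn6 (46.0 ± 0.489), Epcam (43.5 ± 0.916), Cldn7 (39.0 ± 2.78) and Tjp1 (32.5 ± 0.527). Nectin4 was last at day 6 with 0.145 ± 0.0628 CPM per kb.

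The 4 simple keratins were set against 53 listed keratin genes, themselves included. Per kilobase they made up 69.2% ± 1.73 of the summed level of these 53 genes at day 0, 90.9% ± 0.999 at day 2, 96.5% ± 0.322 at day 4 and 98.0% ± 0.233 at day 6 (SD, n = 3). Of 25 other type I keratins, 6 had enough counts to be tested, and at day 6 against day 0 2 rose, 3 fell and 1 did not pass. In that comparison 39.4% of all tested genes rose and 37.5% fell. Krt10, a keratin of suprabasal epidermis, went from 10.04 ± 1.76 to 5.25 ± 0.543 CPM (log2 fold change -0.93, SE 0.16, adjusted p = 3.04e-06). Krt17 and Krt42 fell from 4.15 ± 0.901 and 8.35 ± 1.97 CPM at day 0 to below 1 CPM at each later day. Krt20, a keratin of intestinal and bladder epithelium, went from 0.683 ± 0.290 CPM at day 0 to its highest mean of 3.77 ± 0.601 at day 2. It stood at 2.12 ± 0.704 CPM at day 6. Krt15 rose from 0.122 ± 0.127 CPM at day 0 to 2.49 ± 0.744 CPM at day 6. Both tested type II keratins outside the members, Krt78 and Krt79, fell at day 6. The Krt78 call (log2 fold change -0.73, adjusted p = 0.024) was lost under DESeq2 (-0.72, adjusted p = 0.0852), library size alone (adjusted p = 0.0515) and no filter (adjusted p = 0.0531). It was also lost without replicate 1 or 3 of day 0 (adjusted p = 0.0747 and 0.0612) or replicate 1 of day 6 (-0.48, adjusted p = 0.174).

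**Figure D4:**
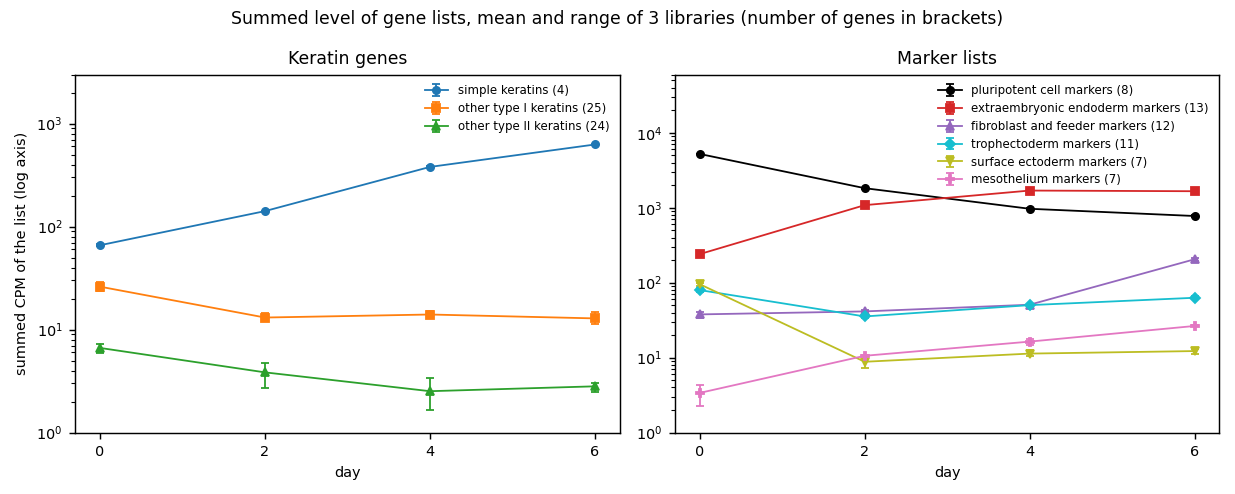
Summed level of gene lists in CPM (vertical log axis) at days 0, 2, 4 and 6 (horizontal axis), points being the mean and bars the range of 3 libraries. On the left the simple keratins reach 628 CPM while the other type I and type II keratins stay below 30 CPM; on the right the pluripotency markers fall, the extraembryonic endoderm markers are highest at day 4 (1688 to 1711 CPM) and the fibroblast and feeder markers are highest at day 6.

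Genes of the structures to which keratins and claudins attach moved in several directions. Of 12 tested genes of desmosomes and keratin linkers, 2 rose and 10 fell at day 2, and 3 rose and 8 fell at day 6 against day 0. Among all tested genes 34.9% rose and 33.2% fell at day 2, and 39.4% rose and 37.5% fell at day 6. Dsp, the desmoplakin that anchors keratin filaments to desmosomes, rose from 129 ± 7.504 CPM at day 0 to 448 ± 19.1 at day 2 and stood at 319 ± 6.13 at day 6 (log2 fold change 1.30, SE 0.05, adjusted p = 2.17e-24). The linker genes Plec (plectin), from 209 ± 7.69 to 75.1 ± 4.88 CPM, Evpl (envoplakin), from 47.4 ± 3.15 to 9.49 ± 1.19 CPM, and Dst (dystonin), from 778 ± 14.7 to 335 ± 8.89 CPM, fell. Of 13 other intermediate filament genes, 5 rose and 6 fell at day 6, which is near the shares of all genes. Vim, the vimentin of mesenchymal cells, rose from 64.2 ± 1.27 to 163 ± 6.76 CPM, with its highest mean at day 2 (230.2 ± 5.77). Des, the desmin of muscle, fell to 12.6 ± 0.985 CPM at day 2 from 31.2 ± 2.78 at day 0 and stood at 49.3 ± 2.41 at day 6. Synm (synemin) fell from 64.6 ± 2.42 to 6.85 ± 0.932 CPM and Prph (peripherin) from 57.5 ± 2.66 to 6.32 ± 1.10 CPM.

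Of 8 tested other claudins, 5 rose and 2 fell at day 6 against day 0. The counts of this paragraph stand beside 39.4% higher and 37.5% lower among all tested genes. Cldn4 fell from 39.2 ± 1.43 to 21.8 ± 1.87 CPM (log2 fold change -0.84, SE 0.08, adjusted p = 3.16e-12), and Cldn12 rose from 22.4 ± 2.38 to 45.1 ± 0.775 CPM (1.01, SE 0.08, adjusted p = 2.12e-14). Cldn11 was at 0.291 ± 0.0901 CPM at day 0 and at 10.3 ± 0.418 CPM at day 6, and Cldn10 at 0.285 ± 0.0471 and 2.48 ± 0.329 CPM. Of 22 other tight junction membrane and plaque genes, 13 rose and 6 fell. Cgn, the plaque protein cingulin, went from 76.3 ± 6.00 CPM down to 32.9 ± 0.921 at day 2 and up to 124 ± 2.27 at day 6, while Jam2 fell from 96.0 ± 3.19 to 8.17 ± 0.731 CPM. Patj, a polarity scaffold of tight junctions, rose from 17.4 ± 0.778 to 83.9 ± 6.37 CPM, and Amotl2 rose from 62.1 ± 4.57 to 452 ± 22.4 CPM. Of 15 tested apicobasal polarity genes, 7 rose and 3 fell. Pard6b rose from 46.4 ± 2.01 to 96.0 ± 2.84 CPM and Llgl2 fell from 168 ± 11.2 to 79.4 ± 1.01 CPM. Pard3 rose from 79.7 ± 0.510 to 112 ± 7.84 CPM and Prkci, an atypical protein kinase C, fell from 202 ± 8.35 to 148 ± 3.70 CPM.

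Among 8 tested adherens junction genes, 5 rose and 3 fell at day 6 against day 0, where 39.4% of all tested genes rose and 37.5% fell. Cdh1, the E-cadherin of epithelia and stem cells, fell from 469.9 ± 9.45 to 231 ± 8.40 CPM (log2 fold change -1.02, SE 0.05, adjusted p = 3.13e-22), Cdh3 (P-cadherin) fell from 30.9 ± 0.949 to 9.88 ± 0.988 CPM, and Cdh2 (N-cadherin) rose from 2.02 ± 0.307 to 25 ± 2.19 CPM. Vcl (vinculin) rose from 117 ± 6.25 to 188 ± 5.25 CPM. Of 8 tested nectins and relatives other than Nectin4, 4 rose and 3 fell. Pvr fell from 17.7 ± 0.217 to 9.83 ± 1.28 CPM, and Afdn, the afadin that links nectins to actin, went from 333 ± 10.2 CPM to 252 ± 11.97 at day 2 and 377 ± 4.67 at day 6. Cadm1 fell from 39.5 ± 2.50 to 28.3 ± 1.28 CPM, and Cadm3 rose from 0.915 ± 0.253 to 2.27 ± 0.236 CPM. Of 10 genes of the Epcam paralog, membrane proteases and tetraspanins, 7 rose and 3 fell. The protease gene Tmprss2 rose from 1.18 ± 0.157 to 59.8 ± 2.45 CPM and the tetraspanin gene Tspan8 from 2.22 ± 0.623 to 51.2 ± 3.02 CPM, while St14, the gene of the protease matriptase, fell from 99.2 ± 3.06 to 44.7 ± 0.530 CPM and Cd81 from 51.6 ± 1.02 to 38.0 ± 0.547 CPM.

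Regulators known for epithelial genes were read from the same libraries. Of 16 tested epithelial transcription and splicing regulators, 6 rose and 8 fell at day 6 against day 0, beside 39.4% and 37.5% of all tested genes. Grhl3 fell from 72.6 ± 2.93 to 1.58 ± 0.439 CPM, Tfap2c from 53.8 ± 4.56 to 4.15 ± 0.537 CPM and Klf4 from 322 ± 6.23 to 63.6 ± 4.16 CPM. Of 8 genes of repressors known to act on epithelial genes, 6 rose and 2 fell at day 6. Snai1 rose from 2.25 ± 0.112 to 10.7 ± 0.567 CPM (log2 fold change 2.24, SE 0.17, adjusted p = 8.63e-15), Zeb2 from 0.981 ± 0.178 to 22.5 ± 1.85 CPM (4.49, SE 0.18, adjusted p = 2.16e-23) and Twist1 from 3.63 ± 0.498 to 39.2 ± 2.64 CPM (3.43, SE 0.12, adjusted p = 2.14e-25). Twist2 was at 0.0422 ± 0.0731 CPM at day 0 and 2.99 ± 0.338 CPM at day 6. Snai1, Zeb2 and Twist1, among the 6 that rose, were at their highest mean at day 6. So were Krt7, Krt8, Krt18, Krt19, Cldn6, Cldn7, Ocln and Epcam, while Tjp1 and Nectin4 were highest at day 0. The share of all genes with their highest mean at day 6 was not counted. Cdh1 was below its day 0 level at day 6. Libraries of whole cultures do not show whether the same cells expressed these genes, and a link between them was not tested.

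Markers of other cell types were counted as lists, beside 39.4% higher and 37.5% lower among all tested genes at day 6 against day 0. Of 7 tested trophectoderm markers, 4 rose at day 6, Krt7 among them, and 3 fell, Tfap2c among them. The list summed to 74.4 to 85.9 CPM at day 0, 34.1 to 36.3 CPM at day 2, 47.7 to 52.0 CPM at day 4 and 60.3 to 67.0 CPM at day 6. Tfap2c, whose levels are given above, made up most of the day 0 sum. The placental markers Tpbpa and Prl3d1 had no count in any library. Surface ectoderm markers summed to 91.1 to 98.0 CPM at day 0 and 11.2 to 12.96 CPM at day 6, with 1 of 4 tested markers higher and 2 lower, and with Krt5, Krt14 and Trp63 below 1 CPM on every day. Mesothelium markers summed to 2.26 to 4.33 CPM at day 0 and 26.1 to 27.0 CPM at day 6. Of the 3 tested, 2 rose at day 6, and Muc16 had no count. Definitive gut endoderm markers summed to 64.6 to 68.8 CPM at day 0 and 128 to 129.9 CPM at day 6, with 4 of 7 tested higher and 2 lower. This list contains Cldn4 and shares Foxa2 and Sox17, which rose, with the extraembryonic endoderm markers. Fibroblast and feeder markers summed to 34.2 to 40.4 CPM at day 0, 47.9 to 52.4 CPM at day 4 and 195 to 214 CPM at day 6, with 8 of 10 tested higher and 2 lower at day 6. Lum and Fap, both on this list, had no count at day 0. The part of any of these cells in the keratin and claudin results was not tested.

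For each of the 10 genes, the 3 protein-coding genes most alike over the 12 libraries were found by Pearson's r of log2 CPM among 10548 genes with a mean of at least 5 CPM. The points share day and library, and the values describe these libraries only. Krt8 was most like Sparc (r = 0.998), Mex3b and Peg3; Sparc, a secreted matrix protein, had means of 313, 1053, 2674 and 3822 CPM at days 0, 2, 4 and 6. Krt18 was most like Pkdcc (r = 0.998), Ggta1 and B4galnt2, and Cldn6 most like Timp3 (r = 0.994), Arl4c and Pkdcc. Krt19 was most like Ecm1 (r = 0.996), Crispld2 and Atp1b1; Ecm1 had means of 2.65, 1.84, 58.7 and 211 CPM. Krt7 was most like Ugt2b34 (r = 0.989), Pgrmc2 and Srf, and Cldn7 most like Plekhh1 (r = 0.990), Cd68 and Wnk2. For the genes that moved least the values were lower, with Ocln nearest to Lpin2 (r = 0.939), Pcsk1 and Iqsec2, Tjp1 to Sptbn1 (r = 0.964), Sos1 and Khsrp, and Epcam to Gatad2b (r = 0.949), Rexo1 and Arrdc4. Nectin4 was nearest to Wscd2 (r = 0.974), Kntc1 and E2f8, and Wscd2 had means of 16.4 CPM at day 0 and 1.04 CPM at day 2.

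Among the members themselves, over the same 12 libraries, r was 0.989 for Krt18 and Cldn6, 0.979 for Krt8 and Krt18, and 0.933 for Krt19 and Cldn7, the keratin and the claudin that fell at day 2. It was 0.755 for Tjp1 and Epcam, both lowest at day 4, 0.005 for Krt8 and Epcam and -0.825 for Krt8 and Nectin4.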

How the data were processed

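The deposited table holds raw counts per gene for 12 libraries (SMARTER kit, polyA RNA); the authors used FastQC 0.11.7, HISAT2 2.1.0 on mm10, featureCounts 2.0.1 and DESeq2, per the submitters' processing notes. Strandedness, treatment of multi-mapped reads and annotation release are not given in the sources used here. Gene identifiers were matched to GENCODE M21 (10 of 10 members); 22866 of 55335 genes had no count.

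Counts were fitted in edgeR 4.0.16 (R 4.3.3): filterByExpr, TMM, robust glmQLFit with 1 coefficient per day over all 12 libraries, glmQLFTest (two-sided), Benjamini-Hochberg adjustment over 16468 genes, threshold 0.05. Each SE is the absolute log2 fold change divided by the square root of F. Ratios of counts (pseudocount 0.5) were tested by exact permutation of the libraries over the 4 days and adjusted over 5 ratios (Python 3.11.15). Counts were also simulated with each of the 16468 genes at its mean over all 12 libraries, 16268 of them unchanged between days. For day 2 against day 0 the fit recovered 46% of 50 genes changed 1.25-fold, 56% of 50 changed 1.5-fold and 88% of 50 changed 2-fold. In the data 68.1% of genes were called at day 2, so these rates do not carry over to the fit of the data.

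Named genes are the 10 members, of each pathway list up to 4 tested genes with the smallest F-test p plus keratins and claudins of at least 5 CPM on some day, and the 3 genes most like each member. 1 gene that this rule names is not reported here. Members and lists were chosen with earlier results of these data known. Alternatives were other scalings, filters and tests (DESeq2 1.42.0, limma-voom 3.58.1), a replicate block and each library left out. Replicates of a day differed by more than sampling noise (chi-square per degree of freedom 1.51 to 3.80), so none was counted as a repeat. Promoter windows are from RefSeq (GRCm38.p6).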

Additional observations from a re-analysis of the deposited data

How the results depend on the processing

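The number of genes called and the number of members called stayed within 1.5 times of the values above. This held in 125 combinations of an alternative setting and a comparison for each, most of them refits with 1 library left out. Leaving out 1 library gave 10604 to 11464 genes for day 2, 11642 to 12401 for day 4 and 12298 to 12926 for day 6, each against day 0. Scaling by library size alone moved the median log2 fold change of all genes from 0.02 to 0.15 at day 2, from 0.01 to 0.14 at day 4 and from 0.02 to 0.12 at day 6, and the split of higher and lower calls at day 2 from 5743 and 5473 to 7053 and 4412.

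Single values near 0 turned. For Ocln, leaving out 1 library gave -0.0012 to 0.21 at day 2 against day 0 (lowest without replicate 3 of day 0) and -0.015 to 0.18 for day 4 against day 2 (lowest without replicate 3 of day 4). Tjp1 was 0.0476 at day 2 and 0.0703 at day 6 against day 0 under library size alone, and 0.0032 at day 6 with no filter. Nectin4, with 16 to 18 counts per day after day 0, was -0.43 for day 4 against day 2 and 0.59 for day 6 against day 4 under limma-voom. Leaving out 1 library gave it -0.58 to 1.22 and -1.03 to 0.77 for these steps, set by replicates 1 and 2 of day 4. The cause was not tested. The log2 ratio of Krt7 to Krt19, day 6 minus day 0, ranged from -0.38 to 0.31 when 1 library was left out, and was 0.05 without replicate 1 of day 0 or of day 6.

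Deviations from the day mean in same-numbered libraries of different days had r from -0.056 to 0.102 over 18 pairs, 1 above 0.1. In 36 pairs with different numbers r ran from -0.117 to 0.0956. The main fit did not pair the libraries by number, but these values cannot exclude that same-numbered libraries had a shared origin. With the replicate number as a block, 11195, 12075 and 12630 genes were called at days 2, 4 and 6 against day 0, and no count of members called changed. Depth limits Krt7 at day 0 and Nectin4 after it. Without Gm42418 and the mitochondrial genes, an alternative added after seeing the data, 11192 genes were called at day 2 against day 0.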
